A study of Homo sapiens with 3 samples.

Results

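The 10 enzyme genes that build fatty acids from citrate and then desaturate and lengthen them were read in MCF10A, a line of human breast epithelium that is immortalized but forms no tumors. They were chosen as a pathway by name, but with earlier results of these data known. They are ACLY, ACACA, ACACB, FASN, SCD, SCD5, FADS1, FADS2, ELOVL1 and ELOVL6. All 10 were found among the 62754 genes of the deposited table through their Ensembl identifiers in GENCODE release 44. RNA-seq was done on 3 replicates of 1 group, cells with a Tet-One retroviral vector that carried no gene of interest, selected with puromycin and labelled as untreated. The replicates carry the same batch label, and it is not stated whether they came from separate cultures, so the spread between them may be technical. With no other group, no condition could be compared with another.

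Fatty acid synthesis in the cytosol starts from citrate that leaves the mitochondria. ATP citrate lyase (ACLY) splits it into acetyl-CoA, acetyl-CoA carboxylase (ACACA, or ACACB at the outer face of the mitochondria) makes malonyl-CoA, and fatty acid synthase (FASN) joins these units into palmitate. Elongases of the ELOVL family add carbon units, stearoyl-CoA desaturases (SCD, SCD5) place the first double bond in saturated chains, and FADS1 and FADS2 desaturate polyunsaturated chains further along. The mammary gland is known for this pathway because milk fat is made there, and growing cells of any kind use it for membranes.

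All 10 genes were expressed, and SCD stood at the top. The values are in TPM, that is reads per base of gene length brought to a sum of 1000000 per replicate, so that levels can be compared between genes. Means ran from 5.002 TPM for ACACB to 1418 TPM for SCD, with a median of 98.7 TPM, where the median of all 20046 protein-coding genes was 3.75 TPM and that of the 11360 of them whose mean reached 1 TPM was 24.9 TPM. At the cutoff of 1 TPM, above which the study counts an enzyme as expressed, 10 of 10 lay in every replicate, beside 24.9% of all genes and 56.7% of protein-coding genes by the mean. Their summed share of the total TPM was 0.304% in replicate 1, 0.309% in replicate 2 and 0.265% in replicate 3. SCD alone made up 48.5% ± 1.01 (SD, n = 3) of that sum, and SCD, FASN and ACLY together 83.1% ± 0.202 (SD, n = 3). Depth was 15273329, 15446347 and 11166546 gene reads in replicates 1 to 3, recovered from the TPM values with the smallest step taken as 1 read. Replicate 3 stood apart from the others with lower TPM for most protein-coding genes, and results that turn on it are given with and without it. In bulk RNA a level is an average over all cells, so a lower level in each cell and fewer cells with the transcript cannot be told apart.

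**Figure D1:**
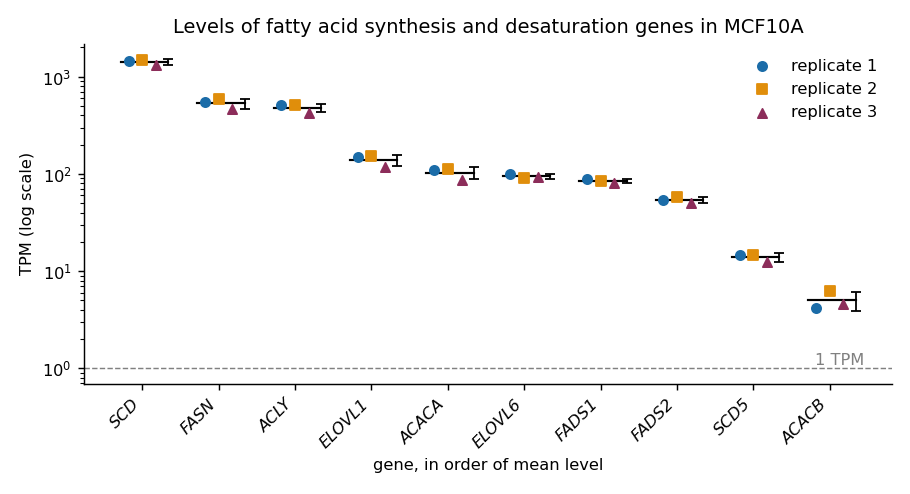
TPM (log axis) of the 10 genes in each of 3 replicates (symbols), with the mean as a line and the SD as an error bar, ordered by mean. SCD lies at 1317 to 1482 TPM, and ACACB, at 4.18 to 6.28 TPM, is the lowest but still above the dashed line at 1 TPM.

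The route from citrate to palmitate was led by its last and its first enzyme, with the carboxylase between them lower. FASN (ENSG00000169710, chromosome 17 of hg38 from 82078338 to 82098294) was found at 555, 583 and 462 TPM in replicates 1, 2 and 3. Its mean was 533 ± 63.4 TPM (SD, n = 3), rank 208 among the protein-coding genes. ACLY (ENSG00000131473, chromosome 17 from 41866917 to 41930542) followed at 509, 507 and 425 TPM, with a mean of 480 ± 47.6 TPM (SD, n = 3) and rank 231. Both were lowest in replicate 3. FASN was above ACLY in 3 of 3 replicates, by only 0.15 ± 0.045 (SD, n = 3) on the log2 scale.

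ACACA, the carboxylase whose malonyl-CoA feeds the synthase, was lower than both. ACACA (ENSG00000278540, chromosome 17 from 37084992 to 37406836) was found at 110, 113 and 86.4 TPM, a mean of 103 ± 14.5 TPM (SD, n = 3) and rank 1517. The level of FASN was 5.03, 5.18 and 5.35 times that of ACACA in the 3 replicates, and that of ACLY 4.61, 4.51 and 4.92 times. On the deposited scale these ratios moved less between replicates than the levels themselves, but a ratio cancels any factor shared by all genes of a replicate. With protein-coding genes only, the levels moved less too. The coefficient of variation was then 2.85% in place of 9.92% for ACLY, 5.69% in place of 11.9% for FASN and 7.34% in place of 14.1% for ACACA.

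ACACB, the carboxylase isoform whose malonyl-CoA is known to restrain fatty acid oxidation, was the lowest gene of the set. ACACB (ENSG00000076555, chromosome 12 from 109116587 to 109268226) was found at 4.18, 6.28 and 4.55 TPM from 205, 317 and 190 reads, a mean of 5.002 ± 1.12 TPM (SD, n = 3). Replicate 2 was the highest here, and replicates 1 and 3 lay close together on the deposited scale only. With protein-coding genes only, ACACB was at 4.56, 6.996 and 5.71 TPM in replicates 1, 2 and 3, so replicate 3 lay between the others. ACACA exceeded ACACB 26.4-fold, 17.9-fold and 19.0-fold in replicates 1, 2 and 3, highest in replicate 1, where ACACB was lowest. The coding parts are of like size, 7149 bases in ACACA and 7374 in ACACB, and their canonical transcripts share no exonic base with another annotated gene on either strand.

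The promoters of both carboxylase genes are shown because the pair differs so much in level. RefSeq sequences (GRCh38.p14) were available for 9 of the 10 members, all but FASN, and the windows are the 250 bases before the transcription start that RefSeq and the canonical GENCODE transcript share. Capitals mark the GC box (GGGCGG, on either strand) and the CCAAT box (CCAAT, on either strand), and matches may overlap. The ACACA window lies at chr17:37406837-37407086 on the minus strand and the ACACB window at chr12:109116337-109116586 on the plus strand.
ACACA: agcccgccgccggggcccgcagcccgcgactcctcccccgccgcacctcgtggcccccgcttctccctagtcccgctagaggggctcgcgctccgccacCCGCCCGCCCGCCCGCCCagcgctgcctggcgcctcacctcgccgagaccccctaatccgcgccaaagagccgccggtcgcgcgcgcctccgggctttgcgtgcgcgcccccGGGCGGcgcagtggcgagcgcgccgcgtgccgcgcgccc
ACACB: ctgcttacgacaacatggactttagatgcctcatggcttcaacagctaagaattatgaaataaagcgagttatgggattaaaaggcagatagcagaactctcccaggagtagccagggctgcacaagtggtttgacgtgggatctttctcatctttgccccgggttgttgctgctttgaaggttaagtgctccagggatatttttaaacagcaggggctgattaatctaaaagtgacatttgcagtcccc
The ACACA window has 81.6% G and C with 45 CpG pairs and holds 5 GC boxes, of which 4 overlap in a row that begins 151 bases before the start. The ACACB window has 45.2% G and C with 4 CpG pairs and holds neither motif, while the median over the 35116 RefSeq windows of this length was 58.0% G and C. RefSeq gives ACACB another start 38092 bases from this one, whose window has 66.4% G and C and 3 GC boxes, and ACACA has other starts too. The table does not tell which start was used in these cells.

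SCD, the desaturase that turns stearate into oleate, was the highest gene of the set by a wide margin. SCD (ENSG00000099194, chromosome 10 from 100347233 to 100364826) was found at 1455, 1482 and 1317 TPM from 40171, 42072 and 30945 reads. Its mean of 1418 ± 88.5 TPM (SD, n = 3) was rank 71 of 20046 protein-coding genes and above 99.6% of them. It exceeded FASN 2.62-fold, 2.54-fold and 2.85-fold in replicates 1, 2 and 3. SCDP1, the processed pseudogene of SCD, had 2, 0 and 2 reads, a gene looked up after the values of SCD were seen.

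SCD5, the other human stearoyl-CoA desaturase, was present at a small part of that level. SCD5 (ENSG00000145284, chromosome 4 from 82629539 to 82798796) was found at 14.6, 14.8 and 12.3 TPM from 233, 243 and 168 reads, a mean of 13.9 ± 1.35 TPM (SD, n = 3). The ratio of SCD to SCD5 was 99.9, 100.3 and 107 in replicates 1, 2 and 3. On the log2 scale it was 6.68 ± 0.053 (SD, n = 3), so it varied between replicates less than that of any other pair of related members. Counting error of SCD5 alone is 6.92%, more than the spread of this ratio (102 ± 3.83, SD, n = 3). The small spread over 3 replicates is therefore not read as a trait of the pair. Though far below SCD, SCD5 lay above 62.4% of protein-coding genes.

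The windows before the SCD and SCD5 starts are given for the same reason, as the pair with the largest ratio. The SCD window lies at chr10:100346983-100347232 on the plus strand and the SCD5 window at chr4:82798797-82799046 on the minus strand, with the same marking.
SCD: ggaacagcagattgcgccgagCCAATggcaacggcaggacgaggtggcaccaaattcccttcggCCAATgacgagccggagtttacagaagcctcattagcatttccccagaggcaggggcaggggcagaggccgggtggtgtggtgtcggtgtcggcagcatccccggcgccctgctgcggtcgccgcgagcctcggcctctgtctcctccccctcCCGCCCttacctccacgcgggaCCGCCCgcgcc
SCD5: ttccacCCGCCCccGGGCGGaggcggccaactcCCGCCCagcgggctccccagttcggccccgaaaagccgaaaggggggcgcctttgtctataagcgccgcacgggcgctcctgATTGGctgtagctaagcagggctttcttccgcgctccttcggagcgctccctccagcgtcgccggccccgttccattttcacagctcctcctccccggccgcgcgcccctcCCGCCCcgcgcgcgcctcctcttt
Both windows are rich in G and C, with 68.0% in SCD and 71.2% in SCD5. SCD holds CCAAT boxes that begin 229 and 186 bases before the start and GC boxes at 33 and 11 bases. SCD5 holds 1 CCAAT box at 135 bases and 4 GC boxes, of which the nearest begins 24 bases before the start. Over all members with a window at the canonical start, a GC box was found in 7 of 8 and a CCAAT box in 4 of 8, where 42.6% and 32.0% of all RefSeq windows hold them. The letters TCACNCCAC of the sterol element, bound by the sterol regulatory factors, CACGTG of the E-box and TATAAA of the TATA box were in none of these 8 windows, and 0.883%, 6.34% and 10.7% of all windows hold them. A match, or its lack, in such a short window is a description of the letters only.

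FADS1 and FADS2, the Δ5 and Δ6 desaturases of polyunsaturated fatty acids, lie at the same locus on chromosome 11. The annotated span of FADS1 falls within that of FADS2, on the opposite strand. FADS1 (ENSG00000149485, from 61799627 to 61829318, minus strand) was found at 88.7, 84.2 and 81.0 TPM, a mean of 84.6 ± 3.85 TPM (SD, n = 3). FADS2 (ENSG00000134824, from 61792980 to 61867354, plus strand) was found at 54.4, 57.5 and 50.6 TPM, a mean of 54.2 ± 3.45 TPM (SD, n = 3). In the deposited values FADS1 was the higher gene in 3 of 3 replicates, 1.63-fold, 1.46-fold and 1.60-fold, but this order was reversed by another choice of gene length.

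The deposited TPM divide the reads of a gene by its longest annotated transcript. For FADS2 that transcript is a retained-intron form of 5073 bases without a coding part, whereas the canonical transcript, which codes for the enzyme, has 3091 bases. With canonical lengths for all genes, FADS2 was at 72.4, 76.5 and 68.9 TPM and FADS1 at 71.8, 68.1 and 67.0 TPM. FADS2 was then the higher gene in every replicate, and the log2 ratio of FADS1 to FADS2 was -0.074 ± 0.083 (SD, n = 3), smaller than its spread. The median gene with at least 1 TPM shifted by -0.30 on the log2 scale under this setting, so relative to the median gene FADS1 stayed in place and FADS2 was higher by the ratio of its lengths, 1.65. The canonical transcripts start 11297 bases apart, and 3.25% of the FADS1 and 4.79% of the FADS2 transcript overlap exons of the other gene on the opposite strand. Whether strand was used in counting is not given in the sources used here.

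**Figure D2:**
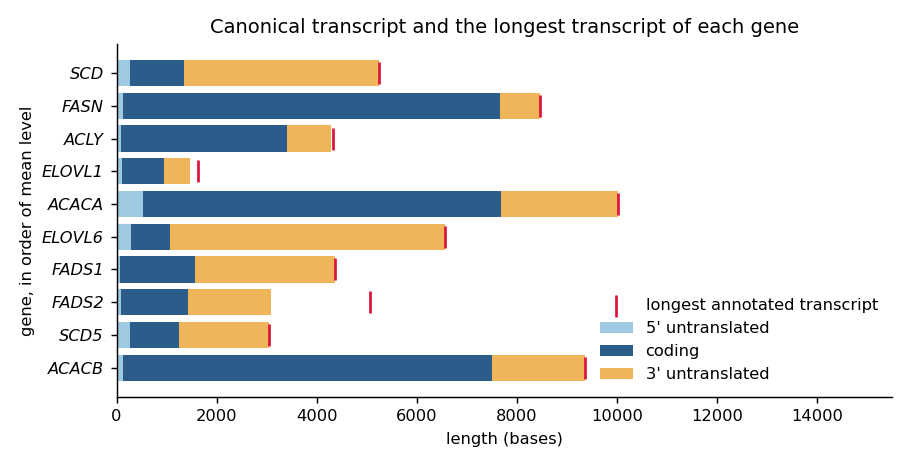
Length in bases of the canonical transcript of each gene, split into untranslated and coding parts (bars), and of the longest annotated transcript that the deposited TPM used (red marks). The mark is far from the end of the bar only in FADS2 (5073 against 3091 bases), and by less in ELOVL1 (1625 against 1466).

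The make-up of the transcripts separates the synthesis enzymes from those that modify chains. In ACLY, ACACA, ACACB and FASN the 3' untranslated part took 9.55% to 23.2% of the canonical transcript. In SCD, SCD5, FADS1, FADS2 and ELOVL6 it took 54.0% to 83.6%, the most in ELOVL6, with 5495 of 6570 bases beside 795 coding bases. ELOVL1 lay between both groups at 35.3%. Reads on these parts count fully toward the level of a gene. Same-strand overlap with exons of other genes was 0% in all 10 members.

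Of the elongases, ELOVL1, which lengthens very long saturated chains, was above ELOVL6, which takes palmitate to stearate, the substrate of SCD. ELOVL1 (ENSG00000066322, chromosome 1 from 43363398 to 43368074) was found at 148, 151 and 119 TPM, a mean of 139 ± 17.6 TPM (SD, n = 3). ELOVL6 (ENSG00000170522, chromosome 4 from 110045846 to 110199199) was found at 100.3, 89.96 and 92.9 TPM, a mean of 94.4 ± 5.32 TPM (SD, n = 3). The ratio of ELOVL1 to ELOVL6 was 1.47, 1.68 and 1.28 in the replicates. ELOVL6 was highest in replicate 1 and ELOVL1 in replicate 2, and the ranges of both genes did not overlap. With canonical lengths the ratio was 1.63, 1.87 and 1.42.

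**Figure D3:**
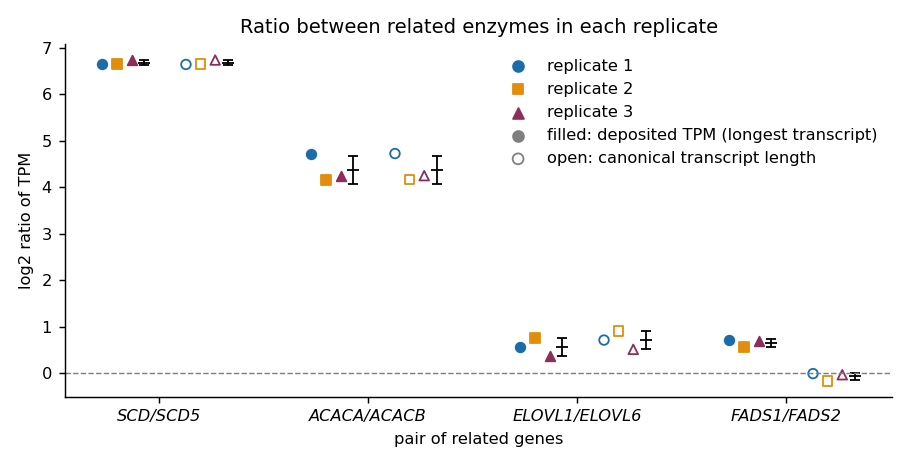
Log2 ratio of TPM between related enzymes in each replicate (symbols), with the mean and SD beside them, from deposited TPM (filled) and from canonical transcript lengths (open). SCD to SCD5 stays near 6.68 and ACACA to ACACB near 4.38 on both scales, while FADS1 to FADS2 goes from 0.64 to -0.074.

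Ordered by mean TPM, the set ran SCD, FASN, ACLY, ELOVL1, ACACA, ELOVL6, FADS1, FADS2, SCD5 and ACACB, with FADS2 ahead of FADS1 when canonical lengths were used. Of the 9 pairs of neighbours, 8 were apart, by which is meant that the higher gene was higher in every replicate and the mean log2 difference exceeded its SD. ACACA and ELOVL6 were not, since the difference of 0.12 ± 0.21 (SD, n = 3) had the higher gene ahead in 2 of 3 replicates only. With 3 paired values an exact sign-flip permutation test cannot go below p = 0.25 (two-sided), so no test was made of the order. With canonical lengths 6 of 9 pairs were apart, and the pair of ELOVL6 and FADS2 and that of FADS2 and FADS1 were not. On the deposited scale, 8 of 9 were apart without replicate 1, 8 of 9 without replicate 2 and 9 of 9 without replicate 3. Replicate 3 was the only replicate with ELOVL6 above ACACA (92.9 and 86.4 TPM). Leaving it out therefore puts ACACA ahead in every remaining replicate by construction, and the 9 of 9 is not read as a firmer order.

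Replicate 3 was lower for most members, as it was for most genes. Its level against the mean of replicates 1 and 2 had a median of -0.25 on the log2 scale over the 9 members of at least 10 TPM, and of -0.24 over the 8364 protein-coding genes of at least 10 TPM, of which 93.5% were lower. Protein-coding genes held 91.5%, 89.8% and 79.6% of TPM in replicates 1, 2 and 3. Of the 10 members, 8 had their lowest value in replicate 3. ACACA moved the most, at -0.37, and ELOVL6 the least, at -0.03, where 90.5% of those genes were more strongly lowered.

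**Figure D4:**
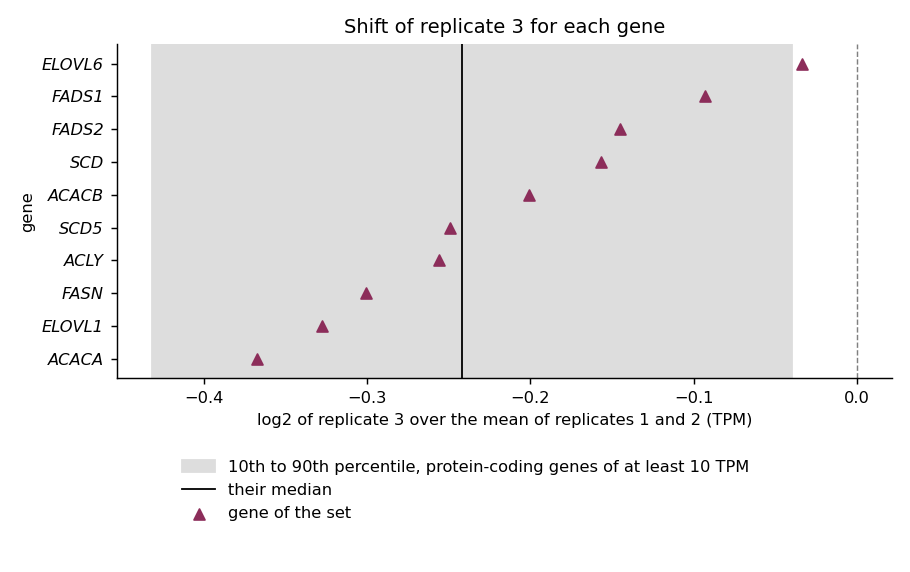
Log2 of replicate 3 over the mean of replicates 1 and 2 for each gene (triangles), with the median (line) and the 10th to 90th percentile (grey) of 8364 protein-coding genes of at least 10 TPM. Apart from ELOVL6 at -0.03, all members lie within the grey band from -0.43 to -0.04.

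On a scale where only protein-coding genes make up the 1000000, the set held 0.336% ± 0.00668 (SD, n = 3), and the spread of 9 of 10 members became smaller. SCD was then at 1590, 1651 and 1654 TPM with a coefficient of variation of 2.23% in place of 6.24%. ACLY was at 556, 565 and 534 TPM with 2.85% in place of 9.92%. ELOVL6 was the exception, with 7.61% in place of 5.64%, and replicate 3 as its highest value. Under this scale 5 of 10 members remained lowest in replicate 3, ACACA among them with 121, 125 and 109 TPM.

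On the deposited scale, the SD of log2(TPM + 1) ranged from 0.065 in FADS1 to 0.26 in ACACB. Among protein-coding genes whose mean was within 25% of the member's, 4.30% had a smaller SD than FADS1, 8.77% than ELOVL6 and 14.4% than FADS2. The corresponding share was 80.3% for ACACA, 76.1% for FASN and 73.1% for ACACB. These shares depend on the scale and were not taken again with protein-coding genes only. There the coefficient of variation was 4.15% in FADS1, 7.61% in ELOVL6 and 4.003% in FADS2. Over the members it ran from 2.23% in SCD to 21.1% in ACACB. Counting error alone would give a coefficient of variation of 0.520% in SCD and 6.66% in ACACB, where 6.24% and 22.5% were found on the deposited scale. With protein-coding genes only, SCD5 was at 3.01%, below its counting error of 6.92%. The median SD over the 10 members was 0.14, and 0.037 without replicate 3.

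The genes around the pathway were read in 9 lists of 80 genes, of which 66 (82.5%) reached 1 TPM by the mean and 14 did not. Of all protein-coding genes 56.7% reached it, and the list counts below are to be read beside that share. For the supply of citrate, acetate and NADPH all 7 genes were above the cutoff, with a median of 212 TPM. PGD, an NADPH-forming enzyme of the pentose phosphate pathway, was at 394 ± 35.7 TPM and SLC25A1, which carries citrate out of the mitochondria, at 230 ± 29.1 TPM (SD, n = 3 each). Both lay above ACACA and below ACLY in every replicate.

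For cofactor attachment and the control of the carboxylase and the synthase, 10 of 13 genes were above the cutoff, with a median of 17.4 TPM. AASDHPPT, which attaches the phosphopantetheine arm to the synthase, was at 46.4 ± 4.72 TPM and MID1IP1, which promotes polymerization of the carboxylase, at 40.6 ± 3.94 TPM (SD, n = 3 each). THRSP, the close relative of MID1IP1 known from lipogenic tissues, had 0 reads in every replicate, which allows up to 0.571 TPM. PRKAG3, a muscle subunit of the AMP-activated kinase, also had 0 reads, which allows up to 0.282 TPM. MLYCD, which breaks malonyl-CoA down, lay at 0.742, 1.24 and 0.786 TPM from 51, 88 and 46 reads, on both sides of the cutoff, as did 2.84% of protein-coding genes.

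All 7 genes of mitochondrial fatty acid synthesis were above 1 TPM, with a median of 27.3 TPM. NDUFAB1, the mitochondrial acyl carrier protein, was at 191.8 ± 20.98 TPM and MCAT, its malonyl transferase, at 34.6 ± 4.72 TPM (SD, n = 3 each). Apart from the members, 9 of 11 enzymes of chain elongation were above it, with a median of 22.0 TPM. HACD3, a dehydratase of the elongation cycle, was at 138 ± 6.90 TPM and ELOVL5, the elongase of polyunsaturated chains, at 124 ± 8.69 TPM (SD, n = 3 each), next to ELOVL1 in level. HACD2, named after its value was seen, was level with ELOVL5 at 124 ± 10.8 TPM (SD, n = 3). It lay above ELOVL5 in replicates 1 and 3 and below it in replicate 2. HACD4, another dehydratase of this family, had 0 reads in every replicate, which allows up to 0.0809 TPM, while its neighbours on chromosome 9, FOCAD and KLHL9, had means of 20.4 and 12.8 TPM. The neighbours were looked up after HACD4 was seen. TECR, also of the elongation list, was at 94.6 TPM. Its longest transcript is 2.57 times its canonical one, against 1.11 for ELOVL5. The order of HACD3, ELOVL5 and TECR therefore depends on the length used.

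Of the other desaturases and their electron donors 5 of 7 were above the cutoff, with a median of 12.3 TPM. DEGS1, which desaturates dihydroceramide, was at 324 ± 13.01 TPM and CYB5B, a cytochrome b5, at 77.8 ± 3.64 TPM (SD, n = 3 each), but 56.8% of the CYB5B transcript overlaps exons of a neighbour with the same orientation. FADS6 had 0 reads in every replicate, which allows up to 0.309 TPM. Of the acyl-CoA synthetases 3 of 5 were above the cutoff, with a median of 80.0 TPM, led by ACSL4 at 94.1 ± 8.08 TPM and ACSL1 at 89.7 ± 4.07 TPM (SD, n = 3 each). The longest transcript of ACSL3, at 80.0 TPM, is 1.52 times its canonical one, against 1.06 for ACSL1. The order of ACSL1 and ACSL3 therefore depends on the length used. All 5 genes of glycerolipid assembly were above the cutoff, with a median of 39.6 TPM, led by LPIN1, a phosphatidate phosphatase, at 104 ± 13.3 TPM and GPAM, the acyltransferase of the first step, at 53.9 ± 6.28 TPM (SD, n = 3 each).

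Transcriptional control was represented by 13 of 14 genes above the cutoff, with a median of 51.4 TPM. INSIG1, which holds the sterol regulatory factors in the endoplasmic reticulum and is itself one of their targets, was at 220, 215 and 216 TPM, a mean of 217 ± 2.75 TPM (SD, n = 3). This small SD holds on the deposited scale only. Protein-coding genes held 91.5%, 89.8% and 79.6% of TPM in replicates 1, 2 and 3, so INSIG1 was not as even as a share of their TPM. SREBF2, which encodes the factor known for sterol genes, was at 137 ± 16.0 TPM (SD, n = 3). SREBF1, which encodes the factor known for fatty acid genes, was at 83.2, 91.3 and 67.2 TPM, and MLXIPL, the carbohydrate-responsive factor, at 0.234, 0.0570 and 0.276 TPM from 4, 1 and 4 reads. Both were named after their values were seen. Uptake and binding of fatty acids had the lowest median of these lists, 2.22 TPM, with 7 of 11 genes above the cutoff, led by FABP5 at 43.6 ± 6.44 TPM and SLC27A4 at 36.2 ± 5.99 TPM (SD, n = 3 each).

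**Figure D5:**
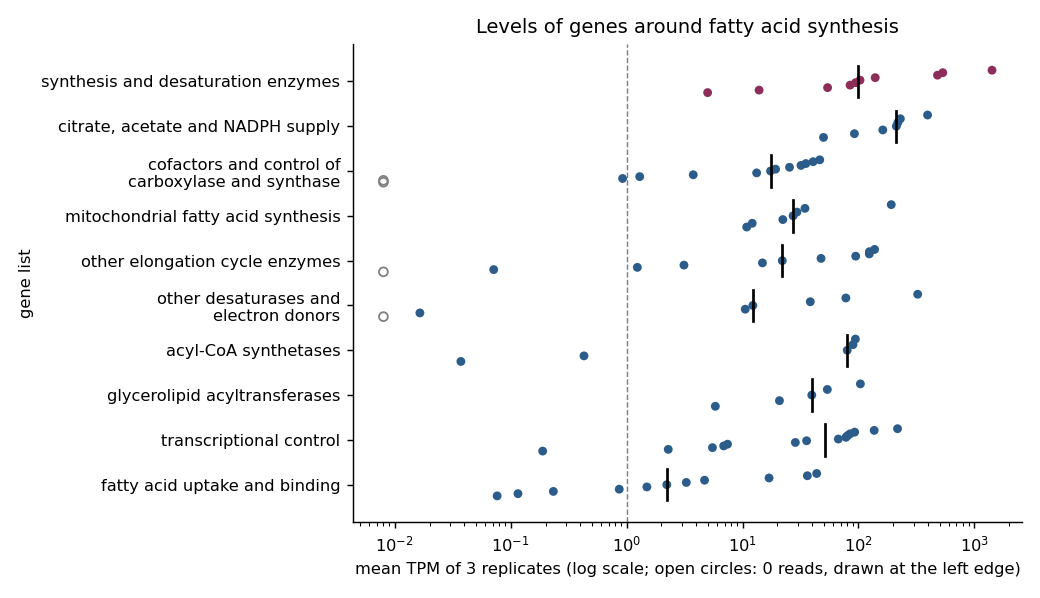
Mean TPM over 3 replicates (log axis) of each gene in the 10 synthesis and desaturation enzymes and in 9 lists of genes around them. Black bars are list medians, the dashed line is 1 TPM, and open circles are the 4 genes with 0 reads; the median falls from 212 TPM for citrate, acetate and NADPH supply to 2.22 TPM for uptake and binding.

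The genes most like SCD in level over the 3 replicates were RPS3 and RPLP2, which encode ribosomal proteins, and ANXA2, an annexin, each within 0.10 of SCD on the log2(TPM + 1) scale in every replicate. Those most like FASN were MYH9, SHC1 and PCBP1, with largest differences of 0.034, 0.059 and 0.065. Likeness here is the largest difference in any replicate of 1 condition and says only that the levels were close.

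The labelled cell type was read from marker genes. All 7 markers of basal mammary epithelium were above 1 TPM, with a sum from 12325 to 15897 TPM in a replicate, led by KRT5 and KRT14. None of 5 markers of milk-secreting cells had a read in any replicate. Of 6 adipocyte markers 1 was above 1 TPM (PLIN4, 1.23 TPM), ADIPOQ, LEP and CIDEA had 0 reads, and their sum was from 1.36 to 1.70 TPM. Of the fibroblast markers 2 of 6 were above it (DCN, 9.05 TPM, and COL1A1, 4.96 TPM), while COL1A2, LUM and PDGFRA had 0 reads, with a sum from 13.4 to 14.4 TPM. Of the endothelial markers 1 of 4 was above it (PECAM1, 1.77 TPM), with sums from 1.77 to 2.16 TPM and CDH5 at 0 reads.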

How the data were processed

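RNA-seq was done on 3 replicates of untreated MCF10A cells with an empty vector, with libraries made from 300 ng of RNA after ribosomal RNA was removed. By the study's methods the authors used Seq2science with the hg38 genome for mapping and counting, and the submitters' processing notes also name fastp, STAR, MultiQC and GRCh38.p14. The authors deposited TPM values per gene and replicate, with 62754 genes and no filter described. Which annotation was used, and whether strand was, is not given in the sources used here.

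GENCODE release 44 (hg38) held 62700 of these genes. TPM times the length of the longest transcript, with 1 base less per exon, was divided by its smallest value above 0, which gave whole reads (within 0.01) for 100% of genes in each replicate. That this step is 1 read is assumed. Genes with 0 reads were given the limit of 3 reads in the replicate where it is highest, which covers counting error only. Promoters were taken from RefSeq.

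All samples are of 1 condition, so levels were described by mean, SD, order and ratio, with no test. The members and lists were chosen with earlier results of these data known. Named genes are all members, the 2 highest of each pathway list, genes with 0 reads or with replicates on both sides of 1 TPM, the 3 genes nearest in level to each of the 2 highest members, and markers. The 2 highest were taken by deposited TPM, and another choice of gene length can change which genes these are. The leukocyte marker list is not reported here. Alternatives covered replicates, scaling, length, cutoff, pseudocount and filter. Read recovery was tested on simulated data and returned the reads of 100% of 62700 genes. The simulated TPM were made with the same gene lengths that the recovery used, so this checks the arithmetic only. It cannot show that the authors used these lengths or that the smallest step is 1 read. Python 3.11.15, numpy 2.4.6, pandas 2.3.3 and matplotlib 3.10.9 were used.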

Additional observations from a re-analysis of the deposited data

How the results depend on the processing

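No paired analysis was possible because the only group has no partner to pair its 3 replicates with. All 10 members were above the cutoff under every alternative tried, and the number of pathway genes above it was 66, with 63 at 2 TPM and 68 at 0.5 TPM as its lowest and highest. Leaving out 1 replicate moved no member's mean by more than 12.8% (ACACB), which cannot exceed 1 SD by construction. The log2 ratio of FADS1 to FADS2 was 0.64 and reversed to -0.074 with canonical transcript lengths, where the length of FADS2 is shorter by construction. With these lengths the median gene moved by -0.30 on the log2 scale, and the means were 1155 (SCD), 434 (FASN), 394 (ACLY), 83.9 (ACACA), 76.9 (ELOVL6), 72.6 (FADS2), 68.9 (FADS1) and 11.3 TPM (SCD5). With protein-coding genes only, the median gene moved by 0.20, and the means were 1632 (SCD), 612 (FASN), 552 (ACLY), 160 (ELOVL1), 118 (ACACA), 109 (ELOVL6), 97.5 (FADS1), 62.3 (FADS2) and 16.0 TPM (SCD5), with a share of 0.336% in place of 0.293%. With mitochondrially encoded genes left out they were 1511 (SCD), 100.6 (ELOVL6), 90.1 (FADS1) and 57.7 TPM (FADS2). Both rescalings multiply all genes of a replicate by 1 factor. With a pseudocount of 1 TPM the log2 ratio of SCD to SCD5 was 6.58 in place of 6.68. The median SD over the members was 0.14 on the log2(TPM + 1) scale, 0.070 with protein-coding genes only, and ranged from 0.037 with replicate 3 omitted to 0.18 with replicate 1 omitted. Why it was smallest there was not tested. ACACB and SCD5, with 168 to 317 reads, are the members that depth limits most.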
